A study of Mus musculus with 9 samples.

Results

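The type 17 cytokine genes Il17a, Il17f, Il21 and Il22 were followed in murine Tc17 cells, which are CD8+ T cells that make IL-17. The members were the 4 rows of the deposited expression matrix that carry these symbols, out of 41388 genes. Naive CD62L+CD44-CD8+ T cells were sorted from lymph node and spleen of C57BL/6 mice, given as WT and 8 to 12 weeks old in the methods. All cultures received the same Tc17 stimulus for 2 days, namely plate-bound anti-CD3 (5 µg/ml), soluble anti-CD28 (0.5 µg/ml), IL-2 (50 U/ml), TGF-β (0.5 ng/ml), IL-6 (30 ng/ml) and anti-IFN-γ (5 µg/ml). The Ctrl group was kept with the solvent DMSO alone at 0.2%, the DMF group with 20 µM dimethyl fumarate, and the DMF + GSH group with 20 µM dimethyl fumarate and 50 µM glutathione. The labels leave unclear whether the cultures with DMF also held DMSO at that level. Each group had 3 RNA-Seq libraries, of which replicate 1 belonged to preparation batch 1 and replicates 2 and 3 to batch 2. The study states in general terms that its experiments used independent biological replicates, but the labels do not say which mice or cultures gave each library, and p-values measure the spread between these libraries.

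IL-17A and IL-17F are closely related secreted proteins that form homodimers and a heterodimer and act on epithelial and stromal cells to recruit neutrophils. IL-21 signals through its own receptor chain together with the common γ chain on lymphocytes, and IL-22 acts on epithelia through a receptor of the IL-10 family. Type 17 cells of both the CD4+ and the CD8+ lineage are induced by TGF-β together with IL-6. DMF is a fumarate ester that reacts with thiols such as that of GSH and is used to treat multiple sclerosis and psoriasis, and the comparison asks how DMF acts on Tc17 cells and whether added GSH alters that action.

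Il17a (ENSMUSG00000025929) lies at chr1:20730905-20734496 on the plus strand and Il17f (ENSMUSG00000041872) at chr1:20777146-20790617 on the minus strand, so that the pair shares 1 locus with a gap of 42.65 kb. Il21 (ENSMUSG00000027718) lies at chr3:37222759-37232636 on the minus strand and Il22 (ENSMUSG00000074695) at chr10:118204942-118210047 on the plus strand. Positions are from the GENCODE vM21 annotation of GRCm38, and all 4 genes are protein coding. Because 3 of the members moved together in the data, the 250 bases upstream of their RefSeq starts (GRCm38.p6) are shown, 5′ to 3′ on the strand of the gene. Capitals mark matches on either strand to a nuclear receptor half-site (AGGTCA), a STAT motif (TTCNNNGAA), an AP-1 motif (TGANTCA), a RUNX motif (TGTGGT) or a TATA box (TATAAA).
Il17a, chr1:20730655-20730904, plus strand: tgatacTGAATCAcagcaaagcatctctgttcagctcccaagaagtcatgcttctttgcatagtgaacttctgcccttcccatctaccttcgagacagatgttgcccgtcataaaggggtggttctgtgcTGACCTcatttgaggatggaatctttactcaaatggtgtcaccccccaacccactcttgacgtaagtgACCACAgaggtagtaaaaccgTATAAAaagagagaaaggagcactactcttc
Il17f, chr1:20784271-20784520, minus strand: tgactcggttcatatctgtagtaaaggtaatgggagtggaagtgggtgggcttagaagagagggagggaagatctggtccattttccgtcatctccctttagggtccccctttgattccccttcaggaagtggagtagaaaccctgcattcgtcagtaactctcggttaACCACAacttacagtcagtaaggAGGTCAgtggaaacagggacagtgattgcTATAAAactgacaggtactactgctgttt
Il21, chr3:37232637-37232886, minus strand: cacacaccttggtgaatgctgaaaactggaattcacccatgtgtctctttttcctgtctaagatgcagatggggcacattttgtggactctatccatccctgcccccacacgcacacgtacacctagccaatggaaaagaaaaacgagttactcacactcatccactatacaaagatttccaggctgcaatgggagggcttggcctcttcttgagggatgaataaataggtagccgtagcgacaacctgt

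In these windows, Il17a and Il17f both carried a TATA box, beginning 31 and 29 bases before the start, a RUNX motif at 52 and 81 bases and a nuclear receptor half-site at 120 and 58 bases. Il17a also held an AP-1 motif at 244 bases. None of these 5 motifs was found in the Il21 window, and a STAT motif was found in none of the windows shown. Of 4 further motifs searched and not capitalized, an AHR motif (GCGTG) was found at 142 bases in the Il21 window and nowhere in the other windows shown, while 28.16% of all promoters held it. A T-box motif (GGTGTGA), an antioxidant response element (TGACNNNGC) and a FOXO motif (TGTTTAC) were found in none of them, and 3.33%, 10.16% and 3.17% of all promoters held these. Among the 32851 promoters of the same length, 12.37% held the TATA box, 14.05% the RUNX motif, 14.02% the half-site, 6.75% the AP-1 motif and 7.02% the STAT motif. The RefSeq start of Il17f lies inside the longer GENCODE gene. The matches describe the letters only, since binding was not measured here.

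Libraries held 7671772 to 11589246 reads in Ctrl, 10382638 to 12669991 with DMF and 9753478 to 14511926 with DMF + GSH, and Ctrl replicate 3 was the shallowest. Values are normalized counts, that is read counts divided by a factor per library. Cd8a averaged 10146 in Ctrl, 12601 with DMF and 10859 with DMF + GSH. Cd8b1 averaged 3248, 3372 and 3274. Together with Cd3d, Cd3e, Cd3g and Cd28, which other T cells also express, these 6 markers summed to 25374 to 33895 in every library. The 3 CD4 T cell markers (Cd4, Zbtb7b, Cd40lg) summed to 42.9 to 89.9. Most of that sum was Zbtb7b, while Cd4 averaged 1.97, 1.03 and 2.61 in Ctrl, DMF and DMF + GSH. The γδ T cell markers Sox13 and Blk summed to at most 14.8, and the 4 B cell markers to at most 22.0. Ctrl replicate 3 stood apart in the 3 myeloid markers measured (Lyz2, Cd14, Csf1r), with a sum of 182 against 2.08 to 18.4 in the other 8 libraries.

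Of the 4 members, 3 were expressed and fell with DMF, and with GSH added to DMF their values were again close to those of Ctrl. Il17a had normalized counts of 269, 504 and 418 in Ctrl replicates 1, 2 and 3. With DMF, its values were 31.7, 146 and 136. With DMF + GSH, they were 276, 398 and 429. Every DMF library lay below every Ctrl and every DMF + GSH library, and replicate 1 was the lowest library in each group. On the recovered reads, the DMF values rest on 30 to 170 reads and those of Ctrl on 259 to 543.

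Il17f was by far the most abundant member, with normalized counts of 2619, 3889 and 4058 in Ctrl. With DMF, they were 722, 1791 and 1763. With DMF + GSH, the values were 2694, 3832 and 4550. Again the DMF libraries did not overlap with the other groups, and replicate 1 was lowest in each. At least 682 reads stand behind each value of this gene.

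Il21 had values of 342, 536 and 434 in Ctrl, close to those of Il17a before gene length is considered. With DMF, they were 104, 211 and 219. With DMF + GSH, they were 325, 377 and 475. The DMF group once more lay below both other groups in all libraries, on 98 to 247 reads.

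**Figure D1:**
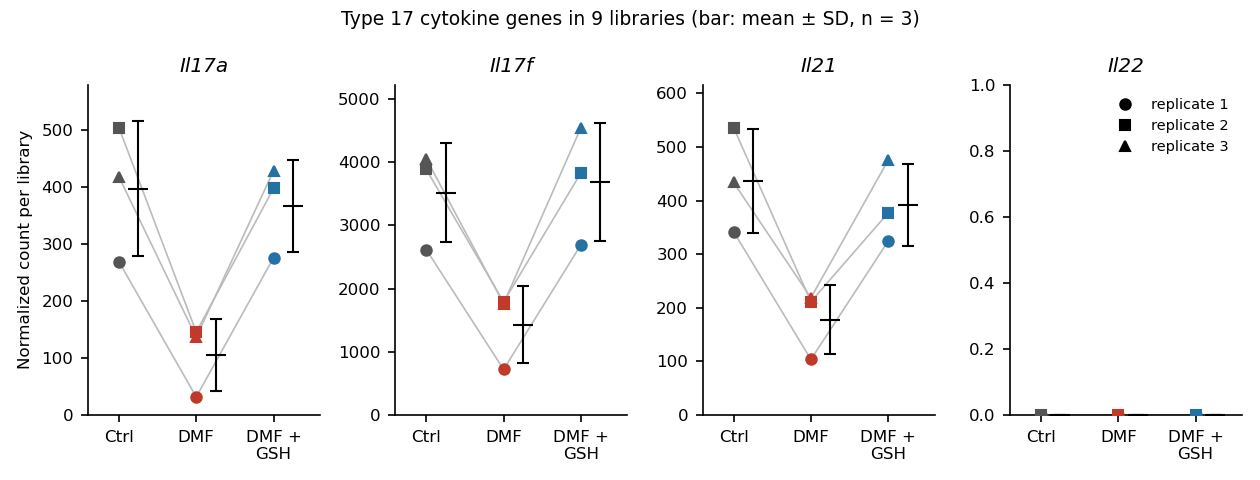
Normalized counts of the 4 genes in each library by group, on linear axes from 0, with lines joining libraries of the same replicate number and bars giving the mean ± SD (n = 3). For Il17a, Il17f and Il21 all DMF libraries sit below all Ctrl and all DMF + GSH libraries, and Il22 is at 0 in all 9.

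Il22 was listed at 0 in all 9 libraries. A count of 0 allows up to 3 reads a library, which corresponds to normalized counts of 2.23 to 4.27, counting error only. No change of Il22 could therefore be measured, and no fold change is given. Of the 1061 windows of 50 bases (the read length) along its longest transcript, 435 (41.0%) also occur in transcripts of Iltifb, a near copy of Il22 lying 79.58 kb away, with 97.39% identity over the aligned positions. Reads from those windows cannot be assigned to 1 gene, whereas the other 626 windows (59.0%) are not shared. Iltifb was likewise listed at 0 in all libraries. For Il17a, Il17f and Il21, 0 of 1122, 1129 and 3023 such windows were shared with another gene.

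Fold changes were fitted with limma on log2(normalized count + 1) over 11599 genes whose mean reached 10, with group and batch in the model. A gene passed the threshold with an adjusted p (p adj, Benjamini-Hochberg) under 0.01 and an absolute log2FC of at least 0.75. Il22 was not tested, and the other 3 members lay above this level in every library, the lowest value being the 31.7 of Il17a. In DMF against Ctrl, 3 of 3 tested members passed the threshold as lower, compared with 1.67% of all genes tested, and 3 of 3 had every DMF library below every Ctrl library, compared with 19.8% of all genes. Il17a had a log2FC of −2.15 (SE 0.272, limma p adj = 0.00305, 95% interval −2.75 to −1.54). For Il17f the log2FC was −1.39 (SE 0.138, limma p adj = 0.00169, interval −1.70 to −1.08). Il21 had a log2FC of −1.34 (SE 0.157, limma p adj = 0.00248, interval −1.69 to −0.995). Ordered by log2FC from the lowest, they stood 30th (Il17a), 121st (Il17f) and 142nd (Il21) of 11599. In these bulk samples, fewer cells expressing a gene and less RNA per cell cannot be told apart.

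The fall was larger in batch 1 than in batch 2 for each of the 3 genes. Il17a was left at 11.8% of Ctrl in replicate 1, at 28.9% in replicate 2 and at 32.6% in replicate 3. For Il17f, 27.6%, 46.1% and 43.5% remained, and for Il21 30.3%, 39.4% and 50.4%. On the log2 scale, the difference in batch 1 was −3.04 for Il17a, −1.86 for Il17f and −1.71 for Il21, against means of −1.70, −1.16 and −1.16 in batch 2. Batch 1 holds 1 library a group, so that no test of this contrast between batches was made.

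When the replicate block (a term for each replicate number) took the place of the batch, the 3 members remained past the threshold, at a limma p adj of 1.97e-07 for Il17a, 9.31e-09 for Il17f and 1.78e-07 for Il21, while the share of all genes called lower rose to 4.28%. With the batch term alone, the calls depended on single libraries. The count over all genes moved as well, from 335 of 11599 with all libraries to 2 or 26 on leaving out replicate 1 or 2 of Ctrl, and to 5 or 12 on leaving out replicate 1 or 3 of DMF. It fell to 55 when DMF + GSH replicate 1 was omitted, and rose to 680 when Ctrl replicate 3 and to 668 when DMF replicate 2 was omitted. Omission of DMF + GSH replicates 2 and 3 gave 320 and 449. Without Ctrl replicate 1, none of the 3 members passed (limma p adj = 0.0354 for Il17a, 0.0272 for Il17f, 0.0354 for Il21), although 3 of 3 had an unadjusted p under 0.05, as did 3681 of the 11599 genes, and edgeR was not run on that subset. Without Ctrl replicate 2, Il17a (p adj = 0.0162) and Il21 (0.0126) were lost in limma, and without DMF replicate 3 again Il17a (0.0135) and Il21 (0.0124). Without DMF replicate 1, Il21 alone was lost (limma p adj = 0.0177). A limma fit with no batch term lost Il17a (p adj = 0.0126) and Il17f (0.0144). Without Ctrl replicate 3, the library with the myeloid transcripts, all 3 passed among 680 genes called (limma log2FC −2.29, −1.42 and −1.45 for Il17a, Il17f and Il21).

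Adding GSH to DMF gave the opposite movement. In DMF + GSH against DMF, 3 of 3 tested members passed the threshold as higher, compared with 0.267% of all genes tested, and in 3 of 3 every DMF + GSH library lay above every DMF library, compared with 17.8% of all genes. Il17a rose by a log2FC of 2.06 (SE 0.272, limma p adj = 0.00652). Il17f rose by 1.45 (SE 0.138, limma p adj = 0.00417) and Il21 by 1.20 (SE 0.157, limma p adj = 0.00646). The comparison shares the DMF libraries with the one above. Ordered from the highest log2FC, Il17a was 16th, Il17f 81st and Il21 139th.

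In replicate 1, Il17a was 8.70 times its DMF value after addition of GSH, compared with 2.73 and 3.14 times in replicates 2 and 3. For Il17f the ratios were 3.73, 2.14 and 2.58, and for Il21 3.13, 1.78 and 2.17. The rise was thus present in all 3 replicate numbers and highest in replicate 1 for each gene. With the replicate block the 3 members passed the threshold, compared with 3.28% of all genes called higher. In the fit with the batch term, none of the 3 passed without DMF replicate 3, without DMF + GSH replicate 1 (limma p adj = 0.0688 for Il17a, 0.0468 for Il17f, 0.0688 for Il21) or without DMF + GSH replicate 2. In each of these 3 limma fits 0 of 11599 genes passed, although 3076 to 3210 had an unadjusted p under 0.05, so that the loss is not particular to the members. With all libraries 63 genes passed, and 7 did without Ctrl replicate 1 and 4 without DMF replicate 1. Omission of another library raised the count to 252 (Ctrl replicate 3), 480 (DMF replicate 2) or 452 (DMF + GSH replicate 3), or left it at 56 (Ctrl replicate 2). Without Ctrl replicate 1, Il17f alone passed, and without DMF replicate 1, Il21 was lost (limma p adj = 0.0537). Without DMF replicate 3, the limma p adj was 0.0330 for Il17a, 0.0249 for Il17f and 0.0330 for Il21, and without DMF + GSH replicate 2 it was 0.0256, 0.0142 and 0.0145. Without Ctrl replicate 1 it was 0.0197 for both Il17a and Il21. Fits with no batch term (limma p adj 0.0174 to 0.0188) or with the 6 libraries compared (0.0116 to 0.0194) also took the 3 genes across the threshold. In each of these limma fits 3 of 3 kept an unadjusted p under 0.05, as did 2835 to 4300 of the 11599 genes, and edgeR with all 9 libraries called 3 of 3 among 66 genes.

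Between DMF + GSH and Ctrl, 0 of 3 tested members passed the threshold in limma, as did 0% of all genes, and 0 of 3 had an unadjusted p under 0.05. In edgeR on the recovered reads 0 of 3 passed as well. The log2FC was −0.09 for Il17a (95% interval −0.70 to 0.52), 0.06 for Il17f (−0.25 to 0.37) and −0.15 for Il21 (−0.50 to 0.20). As a share of Ctrl, DMF + GSH gave 103%, 78.9% and 103% for Il17a, 103%, 98.6% and 112% for Il17f, and 94.9%, 70.4% and 110% for Il21 in replicates 1, 2 and 3. Il17a and Il21 were below Ctrl by the widest margin in replicate 2. The intervals show how large a remaining difference these libraries would still allow in the fit with the batch term. That fit does not pair the libraries of replicates 2 and 3 by number.

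**Figure D2:**
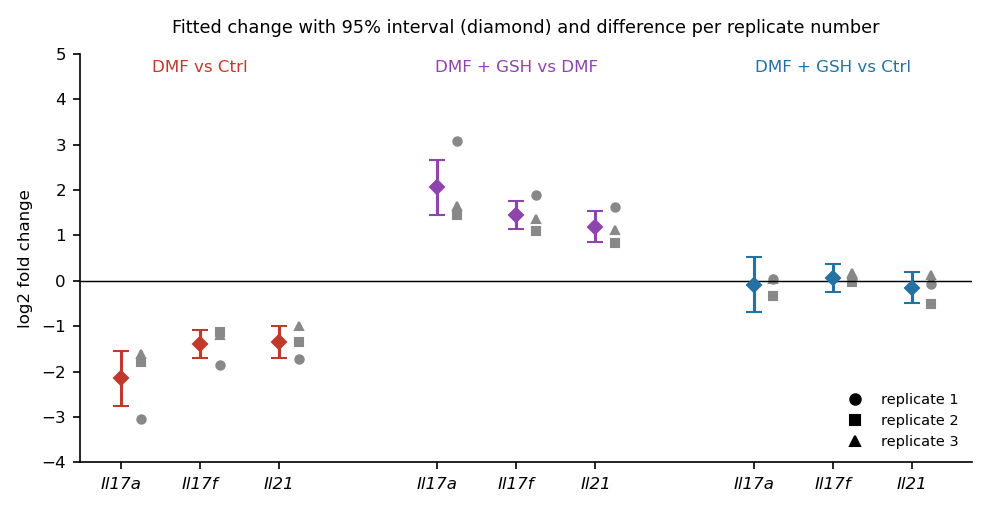
Log2 fold change of Il17a, Il17f and Il21 in the 3 comparisons, with the limma estimate and its 95% interval as a diamond and the difference within each replicate number in grey. The DMF intervals lie wholly below 0, those of DMF + GSH against DMF wholly above 0, and those of DMF + GSH against Ctrl include 0.

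The members did not all move by the same factor in the values measured. The log2 ratio of Il17a to Il17f was −3.17 ± 0.192 (SD, n = 3) in Ctrl and −3.92 ± 0.473 with DMF, a difference of −0.75 that was below 0 in all 3 replicate numbers (−1.19, −0.67 and −0.41). The two-sided exact permutation test gave p = 0.1, the smallest that 3 against 3 libraries can give (0.225 after Benjamini-Hochberg over 9 such tests). The exact sign-flip test over the 3 replicate numbers gave p = 0.25, also its smallest. Il17a also fell against Il21, with a ratio difference of −0.80 (exact permutation p = 0.1, adjusted 0.225). It was −1.33, −0.45 and −0.62 in replicates 1, 2 and 3. Il17f against Il21 differed by −0.05 (exact permutation p = 0.9) with both signs among the replicate numbers. From DMF to DMF + GSH, the ratios rose by 0.60 (Il17a to Il17f), 0.86 (Il17a to Il21) and 0.26 (Il17f to Il21), each in all 3 replicate numbers. The exact permutation p was 0.1, 0.1 and 0.2 (adjusted 0.225, 0.225 and 0.3). None of these tests could reach 0.05, and DMF replicate 1 carried the lowest Il17a ratio. Without that library, the difference of Il17a to Il17f between DMF and Ctrl was −0.48.

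**Figure D3:**
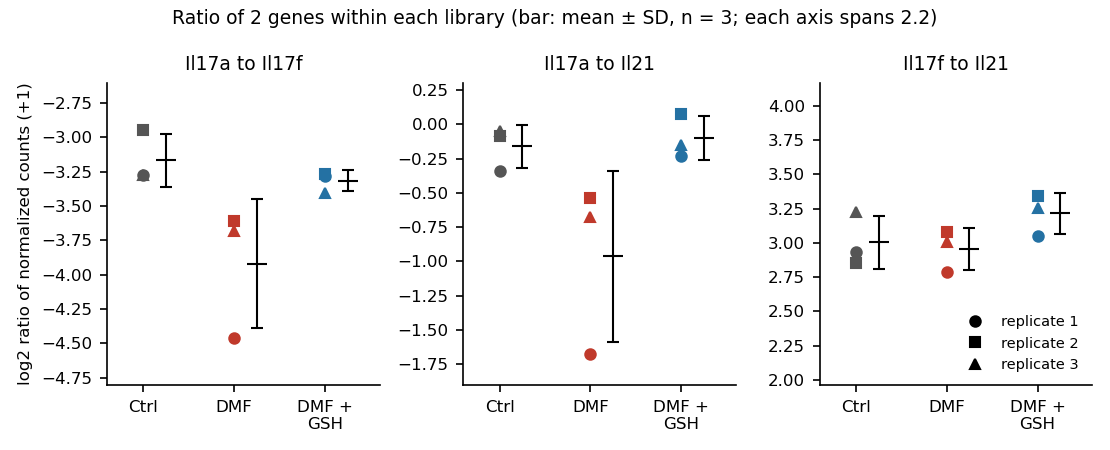
Log2 ratio of each pair of members within a library, by group, with bars for the mean ± SD (n = 3). Il17a lies lower against both Il17f and Il21 in the DMF libraries than in Ctrl, most of all in replicate 1, whereas the values of Il17f to Il21 overlap between Ctrl and DMF.

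Levels can be compared between genes only per length. Divided by the length of all annotated exons, the normalized count per kb in Ctrl was 1742 ± 389 (SD, n = 3) for Il17f, 339 ± 102 for Il17a and 83.1 ± 18.5 for Il21, with Il22 at 0. Il17f exceeded Il17a per kb by 4.46 to 5.63 times in Ctrl, by 7.13 to 13.2 times with DMF and by 5.58 to 6.14 times with DMF + GSH. With the length of the longest transcript instead, these ratios were 7.66 to 9.67, 12.2 to 22.6 and 9.57 to 10.5. The order of Il17f, Il17a and Il21 was the same in the 9 libraries on the exon scale. On the transcript scale, Il17a was at 0.803 of the level of Il21 in DMF replicate 1, so that the order of these neighbours in DMF depends on the length used. In the other 8 libraries Il17a stood 1.64 to 2.77 times above Il21 on the transcript scale.

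The genes around the Il17a and Il17f locus did not move as a block. Mcm3, which encodes a subunit of the replicative helicase and lies 12.35 kb from Il17f, averaged 7176 ± 416 (SD, n = 3) in Ctrl and 7105 ± 222 with DMF (log2FC −0.01). Paqr8, a progestin and adipoQ receptor family gene 99.99 kb from Il17f, averaged 262 ± 41.2 in Ctrl, 133 ± 24.4 with DMF and 247 with DMF + GSH. It passed the threshold as lower with DMF (log2FC −0.98, limma p adj = 0.00503). On the other side of the locus, Pkhd1, 112.84 kb from Il17a, was near 0, at 3.90 in Ctrl.

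Il2, the nearest gene to Il21 on the side of lower coordinates (96.8 kb) and a cytokine that was also supplied in the medium, was near 0 in these cells (4.30 in Ctrl, 1.03 with DMF, 0.572 with DMF + GSH). On the other side, Cetn4 (75.11 kb), Bbs12 (79.92 kb) and Fgf2 did not pass the threshold, with log2FC values of 0.40, 0.24 and 0.80. 4932438A13Rik, at 169.72 kb, had a log2FC of −0.54, short of the size required. The 3 expressed genes near Il22, Mdm1, Rap1b and Nup107, had log2FC values of −0.19, −0.01 and 0.21, and none passed.

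**Figure D4:**
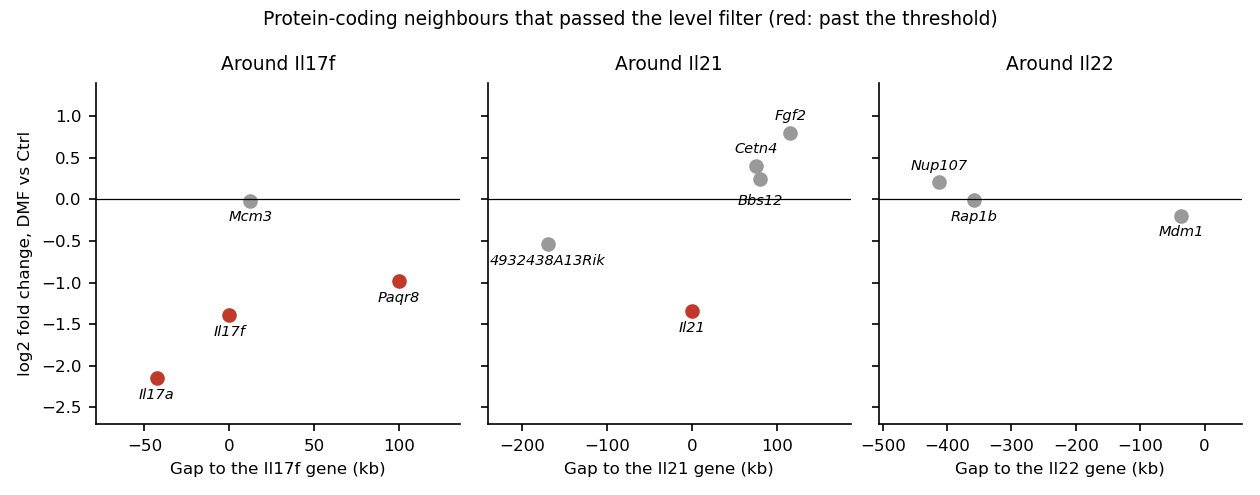
Log2 fold change of DMF against Ctrl for protein-coding genes around Il17f, Il21 and Il22 whose mean normalized count reached 10, against the gap to the gene in kb. Il17a, Il17f and Paqr8 lie low while Mcm3 between them is at 0, and Il21 is the lowest gene of its panel.

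The genes whose centred pattern over the 9 libraries was most like each member were sought by the root mean square difference of log2 values. This distance is not scaled, so it also grows with the size of a change. Among the members, that size was largest for Il17a (log2FC −2.15 with DMF). Il21 was the gene nearest to Il17f and Il17f the gene nearest to Il21, at 0.176, although they lie on different chromosomes. The median over all tested genes was 0.82 from Il17f and 0.72 from Il21. After Il21, the genes nearest to Il17f included Fam217b (0.196), Lingo4 (0.198) and Lgr4 (0.244), and those nearest to Il21 included Lingo4 (0.189), Itga3 (0.254) and Sh3yl1 (0.257). Il17a followed another order, with Tspan2 (0.328), Lgr4 (0.358), Fam217b (0.402), Il17f (0.406) and Il1r1 (0.409) at the top. Il17a was 26th from Il17f and 431st from Il21. Of these genes, Tspan2, a tetraspanin, averaged 347 in Ctrl, 99.8 with DMF and 322 with DMF + GSH, and Itga3, an integrin α chain, averaged 792, 338 and 663.

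Most relatives of the members were at low counts. Of the other IL-17 family genes Il17b, Il17c, Il17d and Il25, 0 of 4 reached the mean required, and their sum was at most 6.6 in any library. Il10 was the sole tested member of 5 other IL-10 family genes and did not pass (log2FC 0.52). Of 10 receptor genes for these cytokines, 5 reached the mean required. Il17ra, the chain shared by receptors of IL-17A and IL-17F, passed as lower with DMF, from 3851 ± 651 to 2198 ± 205 (SD, n = 3, log2FC −0.80, limma p adj = 0.00745), the 1 of 5 that did, beside 1.67% of all genes. Il21r averaged 2303 in Ctrl and 2338 with DMF (log2FC 0.02), and Il10rb and Il2rg had log2FC values of −0.03 and −0.24. Il17rd, at 25.4 ± 3.56 in Ctrl and 14.4 ± 3.08 with DMF, had a log2FC of −0.79 and did not pass (limma p adj = 0.0506).

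Of 11 other T cell cytokines listed, 7 were tested, and 2 passed as higher with DMF, compared with 1.22% of all genes. Ifng, the type 1 cytokine, averaged 106 ± 41.5 in Ctrl and 741 ± 165 with DMF (log2FC 2.87, limma p adj = 0.00123), and Lta, lymphotoxin α, averaged 259 ± 44.1 and 1239 ± 639 (log2FC 2.11, limma p adj = 0.00739). With DMF + GSH, Ifng averaged 98.4 and was the list's 1 gene past the threshold against DMF, compared with 0.276% of all genes called lower. Csf1, Ltb and Il16 had log2FC values of −1.06, −0.57 and −0.50 with DMF, and with the replicate block Csf1 passed as lower (limma p adj = 0.0018). The list's median log2FC was 0.34, beside 0.01 over all genes tested.

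Of 19 listed genes known to act for the type 17 program, all were tested, 15 had a log2FC below 0 with DMF, as did 49.4% of all genes, and 2 passed as lower, beside 1.67% of all genes. They were Il1r1, the signalling receptor of IL-1, which averaged 649 in Ctrl, 99.3 with DMF and 400 with DMF + GSH (log2FC −2.79, limma p adj = 0.00036), and the transcription factor Rora, at 298, 160 and 244 (log2FC −0.88, limma p adj = 0.00543). The list's median was −0.33. Maf (log2FC −0.70) and Il6ra (−0.73) fell short of the size required, and Stat3 had a log2FC of −0.06. With the replicate block Il23r, a receptor chain for IL-23, was called as well (log2FC −1.46, limma p adj = 0.000261).

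Of 14 tested genes listed as acting against the program, Tbx21 and Eomes, T-box factors of type 1 and cytotoxic cells, passed as higher with DMF, beside 1.22% of all genes. By sign, 6 had a log2FC above 0 and 8 below. The list holds genes whose role is not solely against the program, such as Ikzf3 (log2FC −0.41). The sign count and median therefore describe the list as written. Tbx21 averaged 270 in Ctrl and 514 with DMF (log2FC 0.98, limma p adj = 0.00564) and Eomes 28.2 and 130 (log2FC 2.35, limma p adj = 0.00276). The list's median was −0.18. With the replicate block 5 passed as higher, where 2.53% of all genes did, with Fosl1, Il2ra and Prdm1 added, and 2 as lower (Socs3 and Bcl6), where 4.28% did.

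**Figure D5:**
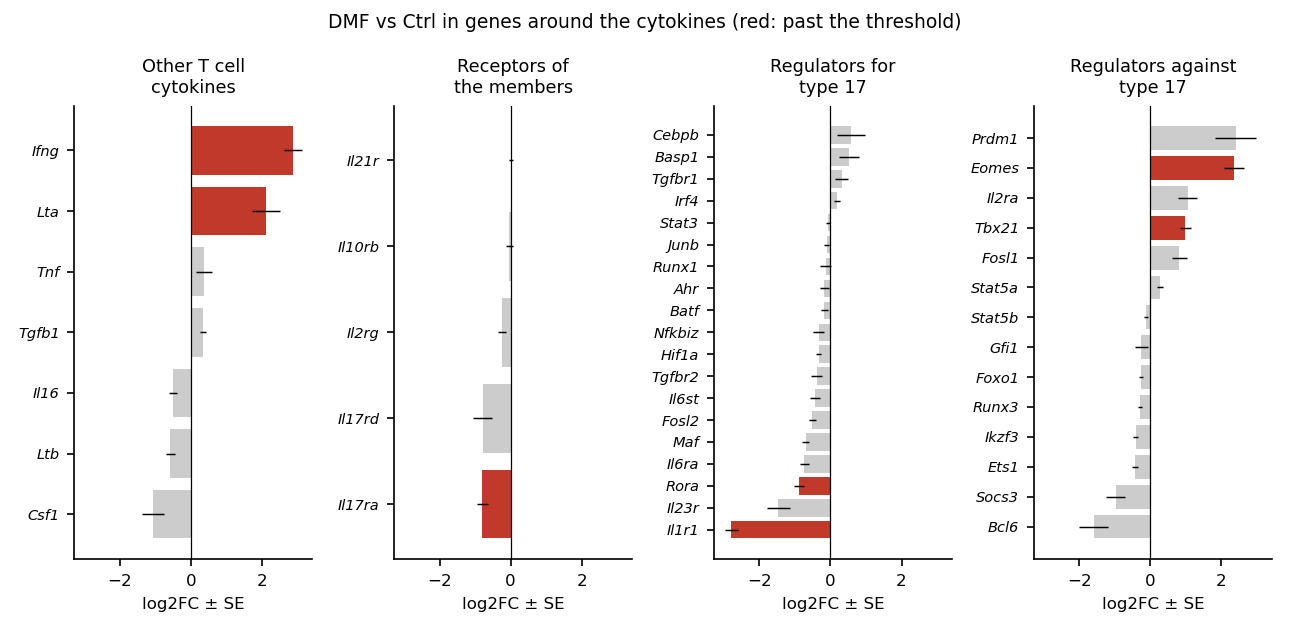
Log2 fold change of DMF against Ctrl (± SE) for the tested genes of 4 lists, with those past the threshold in red. Ifng and Lta lie highest among the cytokines, and Il1r1 lies lowest among the genes that act for the type 17 program.

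Foxp3, a marker of regulatory T cells, differed between the groups in the direction opposite to the members. The sum of Foxp3 and Ikzf2 was 656 to 1015 in Ctrl, 1134 to 2530 with DMF and 551 to 1011 with DMF + GSH, and of this list 0 of 2 passed in the fit with batch and 1 of 2, Foxp3, with the replicate block, beside 1.22% and 2.53% of all genes called higher. Foxp3 was 796, 559 and 913 in Ctrl and 2456, 1035 and 2325 with DMF in replicates 1, 2 and 3 (log2FC 1.29, limma p adj = 0.0221, and 1.06e-07 with the block). Ikzf2 averaged 84.0, 95.5 and 89.0 in Ctrl, DMF and DMF + GSH, with overlapping groups (log2FC 0.22, limma p adj = 0.503). The 5 innate lymphoid and NK markers (Ncr1, Klrb1c, Eomes, Id2, Kit) summed to 1081 to 1389, 725 to 837 and 1069 to 1362 in Ctrl, DMF and DMF + GSH, mostly from Id2. Of this list, Id2 passed as lower (log2FC −0.94, limma p adj = 0.00277) and Eomes, given above, as higher, while Ncr1 and Klrb1c stayed at or below 2.84. The part of these markers in the values of Il17a, Il17f and Il21 was not tested.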

How the data were processed

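Groups, replicate numbers and batches were taken from the sample labels. The authors aligned single 50-base reads to GRCm38 with STAR 2.4.0b, counted them per gene and deposited counts divided by a factor per library, a normalized signal of 41388 genes. The authors' own columns of fold changes and p-values were not used. Each library's smallest step was taken as 1 read, and 100% of its nonzero values were then whole (tolerance 0.01). On these, edgeR 4.0.16 called 338 genes between DMF and Ctrl. The design had foreseen a count test only for raw counts, so limma 3.58.1 (limma-trend, R 4.3.3) on log2(normalized count + 1) was the test, tested on simulated data before use.

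Genes named were the 4 members, for each the 5 with the most similar pattern and the 3 nearest protein-coding genes on each side, and from lists of related cytokines, receptors, regulators and markers those that passed and the best known. The members and lists were chosen with earlier results of these data known. A result for 1 single gene is not reported here. Trdc and Adgre1 were not analysed here. Replicate numbers were taken as pairing the libraries, since same-numbered libraries of different groups correlated over genes at 0.447 to 0.578 in all 9 pairs. Group means were removed first. The 18 other pairs were at most −0.0621, but removing group means pushes them below 0 on balance once the 9 are above 0. Alternatives were pseudocounts of 0.5 and 4, no minimum or a minimum mean of 50, TMM rescaling, no batch term, a replicate block, the 6 libraries compared, edgeR with either design, and each library left out. Promoters are from RefSeq (GRCm38.p6). Scripts used Python 3.11.15, pandas 2.3.3, NumPy 2.4.6, SciPy 1.17.1 and Matplotlib 3.10.9. How reads shared by similar genes were counted is not stated in the sources at hand.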

Additional observations from a re-analysis of the deposited data

How the results depend on the processing

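Il17a, Il17f and Il21 kept their direction in DMF against Ctrl and in DMF + GSH against DMF under each alternative and without each library. Of 90 log2FC values from alternatives with all libraries, 82 kept their side of the threshold. The 90 also include DMF + GSH against Ctrl, where no member passed under any of them. All 8 that crossed belonged to the other comparisons. With no batch term, Il17a (log2FC −2.15) and Il17f (−1.39) no longer passed in DMF against Ctrl, which left 1 of 3 members, and in DMF + GSH against DMF 0 of 3 passed at log2FC values of 2.06, 1.45 and 1.20. The last values and a count of 0 also held with the 6 libraries compared, which differ in having fewer samples. With the replicate block, 3 of 3 passed in both comparisons at log2FC values of −2.15, −1.39 and −1.34 and of 2.06, 1.45 and 1.20. The count of all genes past the threshold rose from 335 to 789 in DMF against Ctrl and from 63 to 660 in DMF + GSH against DMF, was 28 in the latter with no batch term, and with the 6 libraries compared it was 43 and 5. With no minimum more genes were tested, and 451 of 26629 passed in DMF against Ctrl and 273 of 26629 in DMF + GSH against DMF. The cause was not tested.

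With each library left out, the number of members past the threshold in DMF against Ctrl ranged from 0 to 3, at log2FC values of −2.39 to −1.67 for Il17a, −1.55 to −1.17 for Il17f and −1.51 to −1.14 for Il21. In DMF + GSH against DMF it ranged from 0 to 3, at 1.58 to 2.30, 1.23 to 1.61 and 0.99 to 1.38. In each fit with the replicate block all 3 passed in both, among 561 to 865 and 404 to 728 genes called. In DMF + GSH against Ctrl, where no member passed, values lay from −0.38 to 0.13 for Il17a, −0.0445 to 0.18 for Il17f and −0.31 to 0.0304 for Il21, with either sign. Il22, at 0 reads, gave no value under any alternative. Where a library was left out, 1 group kept 2 libraries, and batch 1 could lose a group entirely.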

Other observations

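A few low-count cytokine and receptor genes of the lists lay under the minimum mean of the fit and were singled out after their values were seen. Il9, a common γ chain cytokine, had normalized counts of 0 to 2.84 in Ctrl, 5.14 to 38.7 with DMF and 0 to 2.92 with DMF + GSH. Il24, a cytokine of the IL-10 family to which IL-22 belongs, had 0 to 1.42 in Ctrl and 0.856 to 15.5 with DMF, so that the groups overlapped, and was listed at 0 with DMF + GSH. Il17re, a receptor chain of the IL-17 family, moved the other way, with 7.11 to 17.7 in Ctrl, 0 to 2.57 with DMF and 6.68 to 11.7 with DMF + GSH. They entered the fit with no minimum level, whose results for single genes are not given here.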
